A study of Mus musculus with 4 samples.

Results

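DNA damage signalling and break repair was followed in colonies grown from mouse blood progenitors, through 41 of the 14323 genes of the expression table. They were taken by symbol from a list chosen with earlier results of these data known. The 41 genes were grouped by role: 6 checkpoint kinases and their activators, 7 genes that sense breaks and mark chromatin, 11 genes of homologous recombination, 9 Fanconi anaemia genes, 6 genes of non-homologous end joining and 2 poly(ADP-ribose) polymerases. All 41 were detected in every library, with at least 35 reads each, and all 41 passed the filter of a mean of at least 1 normalized count that left 11370 genes to be tested.

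The colonies came from 2 kinds of sorted cell of C57BL/6 mice, short-term haematopoietic stem cells (ST-HSC) and MPP2 cells, a multipotent progenitor biased toward the megakaryocyte and erythroid lineages. All of them carried a model in which 4-hydroxytamoxifen (4OHT) switches on MLL-ENL, a leukaemia fusion of a histone methyltransferase with a transcription elongation factor. Cultures were seeded with 100 cells and grown for 5 to 7 days in methylcellulose, with the cytokines SCF, GM-CSF, IL-3 and IL-6. The 4 groups were ST-HSC with ethanol, ST-HSC with 0.05 µM 4OHT, MPP2 with ethanol and MPP2 with 0.05 µM 4OHT, each with 1 library. The ethanol cultures carried the same inducible model, and no group received 4OHT without it, so the fusion and the drug itself cannot be told apart. The driver of the fusion, the age of the mice and the number of animals are not given in these sources. With 1 library per group there is no replicate check within a cell type. A p-value from a fit of cell type and treatment rests on how unlike the 4OHT differences of the 2 cell types are. The spread of other genes is drawn in as well, and spread between repeat cultures is not measured.

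Cells sense broken or stalled DNA with the kinases ATM and ATR, which pass the signal to CHK1 and CHK2 and hold the cell cycle. Double-strand breaks are then either joined end to end, throughout the cycle, or copied from the sister chromatid by homologous recombination, mainly in S and G2 phase. The Fanconi anaemia genes remove crosslinks between DNA strands and are known in blood for the marrow failure that follows their loss in the germ line.

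The 4 libraries held between 12907412 and 14317891 reads. Levels are given in normalized counts, the reads of a gene divided by the scaled size of its library, and 1 read was worth between 0.0695 and 0.0802 of them. The ribosomal precursor Rn45s took 4.82% to 7.39% of the reads. The genes of both fusion partners gave log2 differences (4OHT minus ethanol) of -0.16 and -0.11 for Kmt2a and 0.06 and 0.21 for Mllt1 in ST-HSC and MPP2 cultures, and gene totals do not separate fusion reads from those of the cell's own genes. Slamf1, the CD150 marker by which MPP2 cells are sorted, had 0 reads in both ST-HSC libraries and 44 and 31 in the MPP2 libraries. The 14 measured macrophage markers summed to 2095 in ST-HSC with ethanol, 3315 in ST-HSC with 4OHT, 3387 in MPP2 with ethanol and 5329 in MPP2 with 4OHT. The 14 neutrophil markers summed to 33422, 25082, 45536 and 45023 in the same order, while the 10 stem and progenitor markers summed to between 140.3 and 213. Lyz2 and Itgam made up most of each macrophage sum, and Ngp, S100a8 and S100a9 most of each neutrophil sum. Elane, Mpo and Prtn3, 3 of the 14 neutrophil markers, were lower in MPP2 than in ST-HSC cultures. In such bulk samples fewer cells of a type and less RNA per cell cannot be told apart, which holds for every difference given here.

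As a group, the 41 genes stood lower with 4OHT in both cell types, by a modest margin. The log2 difference was below 0 for 33 of 41 in ST-HSC cultures and for 33 of 41 in MPP2 cultures, where 50.6% and 50.2% of all tested genes were below 0. The median was -0.23 and -0.17, beside -0.00 for all tested genes in either cell type. In 26 of 41 the difference was below 0 in both cell types, beside 31.4% of all tested genes, and only Mdc1 was above 0 in both. Both 4OHT libraries lay below both ethanol libraries for 18 of 41 genes, beside 14.3% of all tested genes, and above both for 0, beside 12.2%. The ethanol-treated ST-HSC library was the highest of the 4 for 25 of the 41 genes, and the 4OHT-treated MPP2 library was the lowest for 24.

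**Figure D1:**
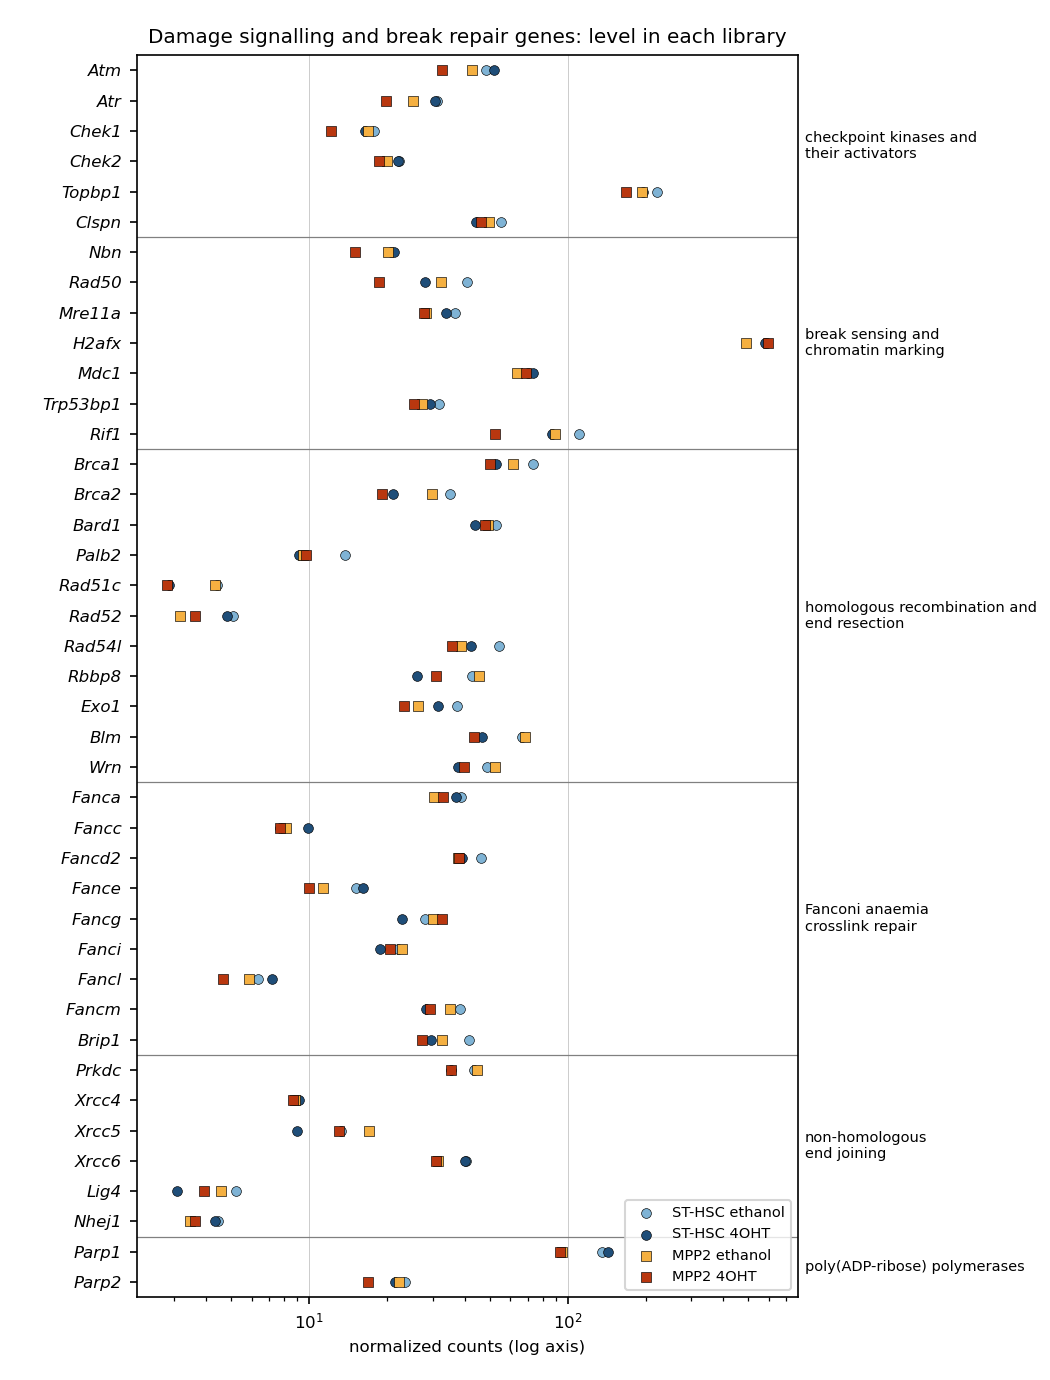
Normalized counts of the 41 genes in the 4 libraries, grouped by role, on a log axis; each point is 1 library. H2afx lies above all others at 488 to 595 and Rad51c, Rad52, Lig4 and Nhej1 lie lowest.

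The single changes were small. On the log2 scale, after 0.5 was added to each value, a gene was counted as lower at 20% or more and as higher at 25% or more, which are equal steps. At least 20% lower were 14 of 41 genes in ST-HSC cultures, beside 10.5% of all tested genes, and in 14 of 41 in MPP2 cultures, beside 16.8%. Only Fancc in ST-HSC cultures stood at least 25% higher, where 11.8% of all tested genes did so, and 0 genes did in MPP2 cultures, where 13.3% did. None of the 41 reached 2-fold in either direction. Of all tested genes, 0.545% were 2-fold lower and 2.1% higher in ST-HSC cultures, and 1.7% and 1.32% in MPP2 cultures. A ratio of normalized counts had a 95% counting interval wholly below 1 for 21 genes in ST-HSC cultures (20% of all tested genes) and for 17 in MPP2 cultures (23.9%), and wholly above 1 for 0 (18.8%) and 1 (23.9%). These intervals cover counting error alone, without variation between cultures.

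**Figure D2:**
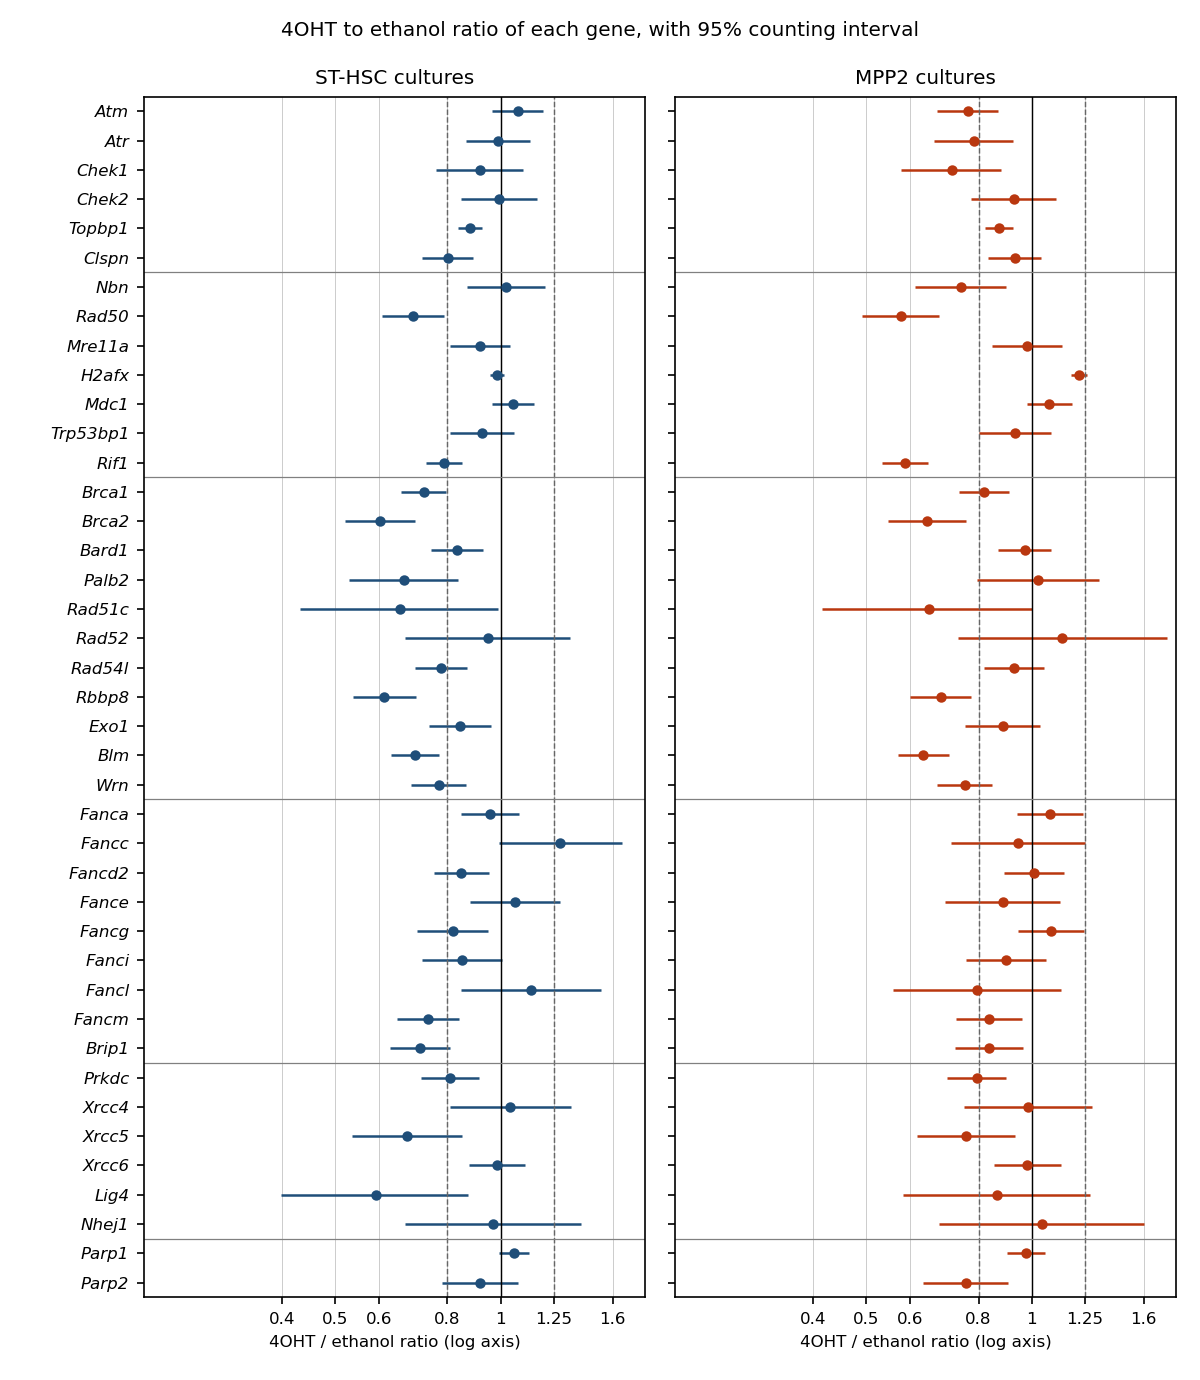
Ratio of 4OHT to ethanol for the 41 genes in ST-HSC and MPP2 cultures, on a log axis, with exact 95% counting intervals as bars and dashed lines at 20% lower and 25% higher. Most points lie left of 1, and the lowest are Lig4 in ST-HSC cultures at 0.593 and Rad50 in MPP2 cultures at 0.578.

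Among the checkpoint genes the medians were -0.07 in ST-HSC and -0.27 in MPP2 cultures. None of the 6 was at least 20% lower in ST-HSC cultures, and 3 were in MPP2 cultures (Atm, Atr and Chek1). With the trend of all genes along GC content subtracted, none of these 3 was, at log2 differences of -0.16 for Atm, 0.054 for Atr and -0.17 for Chek1, and the MPP2 median was -0.075. Topbp1, the activator of ATR, was the most abundant per length, with a mean of 17.3 normalized counts per kb of exon. Its level was 222 and 195 without and with 4OHT in ST-HSC cultures, and 193 and 168 in MPP2 cultures. Each 4OHT library was thus below its own control, with ratios of 0.879 (95% counting interval 0.835 to 0.925) and 0.872 (0.823 to 0.924). Atm, the kinase that responds to double-strand breaks, measured 48.3 and 51.8 in ST-HSC cultures and 42.6 and 32.6 in MPP2 cultures. Its ratio was 1.07 (0.966 to 1.19) in the first and 0.765 (0.673 to 0.870) in the second, and the MPP2 library with 4OHT was the lowest of the 4. Atr, which responds to stalled forks, measured 31.2, 30.8, 25.2 and 19.7 in the order ST-HSC with ethanol, ST-HSC with 4OHT, MPP2 with ethanol and MPP2 with 4OHT. That order is kept in all lists of 4 values from here on. Atr was the lowest of the 6 per kb of exon, at 1.13, and its MPP2 ratio was 0.784 (0.663 to 0.925). Chek1, the kinase below ATR, measured 17.9, 16.4, 17.0 and 12.1, with an MPP2 ratio of 0.714 (0.578 to 0.880). Clspn, the adaptor that brings CHK1 to ATR, measured 55.1, 44.1, 49.8 and 46.4, with both 4OHT libraries below both controls. Its ratio in ST-HSC cultures, 0.801 (0.720 to 0.891), was the lowest of the 6 there, and in MPP2 cultures it was 0.931 (0.833 to 1.04). Chek2, the kinase below ATM, had log2 differences of -0.01 and -0.11.

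The 7 genes of break sensing had medians of -0.11 and -0.10, and of these only Rad50 and Rif1 were at least 20% lower in both cell types. Rad50, the ATPase of the MRN complex that holds broken ends, lies on chromosome 11 (53649519-53707319, minus strand, GRCm38) and measured 40.7, 28.2, 32.3 and 18.7. Both 4OHT libraries lay below both ethanol libraries, with ratios of 0.693 (0.608 to 0.788) and 0.578 (0.491 to 0.679). Rif1, which blocks resection of ends together with 53BP1 and also times replication, lies on chromosome 2 (52072832-52122383, plus strand) and measured 110.5, 87.0, 89.0 and 52.3. Its ratios were 0.788 (0.730 to 0.849) and 0.587 (0.533 to 0.646), with the ST-HSC library with 4OHT only just below the MPP2 library with ethanol. The partners of Rad50 were not that much lower in both cell types. Mre11a, the nuclease of the complex, had log2 differences of -0.12 and -0.03, and Nbn, its signalling subunit, measured 20.7, 21.2, 20.2 and 15.0. Nbn was at a ratio of 1.02 (0.868 to 1.21) in ST-HSC cultures and 0.743 (0.614 to 0.897) in MPP2 cultures. In MPP2 cultures its interval overlapped that of Rad50.

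H2afx, which encodes the histone variant H2A.X that ATM phosphorylates around breaks, was by far the most abundant of the 41 at a mean of 407 normalized counts per kb of exon. It measured 589.7, 580.3, 488 and 595. The ratio was 0.984 (0.954 to 1.01) in ST-HSC cultures and 1.22 (1.18 to 1.26) in MPP2 cultures, so the MPP2 library with ethanol was the low one and the other three were alike. Of its 31-base words, 8.86% also occur in other genes, mainly another histone gene, so part of its count is uncertain. Mdc1, the scaffold that binds phosphorylated H2A.X, had log2 differences of 0.07 and 0.11. Trp53bp1, which encodes 53BP1, measured 31.7, 29.3, 27.3 and 25.5 and was the lowest of the group per kb at 2.01, and its ratios of 0.925 (0.807 to 1.06) and 0.933 (0.801 to 1.09) had intervals that reached 1.

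Homologous recombination had the lowest medians of the 6 groups. All 11 genes were below 0 in ST-HSC cultures and 9 of 11 in MPP2 cultures, with medians of -0.46 and -0.29. At least 20% lower were 8 of 11 and 5 of 11, beside 10.5% and 16.8% of all tested genes. The 5 genes Brca2, Rad51c, Rbbp8, Blm and Wrn were so in both, beside 4.57%. With the GC trend of all genes subtracted, 3 of the 11 (Brca2, Rad51c and Blm) were so in both, beside 2.83%. Summed over the 11 genes, the share of all reads was 0.0436% (exact 95% interval 0.0425% to 0.0447%) and 0.0325% (0.0316% to 0.0335%) in ST-HSC cultures with ethanol and 4OHT. In MPP2 cultures it was 0.0393% (0.0382% to 0.0404%) and 0.0296% (0.0287% to 0.0306%).

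Brca2, a tumour suppressor that mediates recombination at resected DNA, lies on chromosome 5 (150522630-150570329, plus strand) and measured 34.9, 21.1, 29.7 and 19.2. Both 4OHT libraries were clearly below both controls, at ratios of 0.603 (0.520 to 0.698) and 0.645 (0.548 to 0.758). Rbbp8, which encodes the resection factor CtIP, measured 42.5, 26.1, 45.5 and 31.05, with ratios of 0.614 (0.538 to 0.700) and 0.683 (0.6002 to 0.776). Blm, the helicase that resolves crossed-over strands, lies on chromosome 7 (80454733-80535119, minus strand) and measured 66.8, 46.6, 68.5 and 43.5. Its ratios were 0.698 (0.631 to 0.772) and 0.634 (0.570 to 0.706), and again the libraries separated by treatment and not by cell type. Wrn, a related helicase, measured 48.7, 37.5, 52.4 and 39.6, with ratios of 0.771 (0.687 to 0.864) and 0.755 (0.672 to 0.848). Rad51c, which also acts in recombination, was scarce at 4.38, 2.87, 4.33 and 2.81 (63, 40, 60 and 35 reads). Its ratios of 0.656 (0.430 to 0.991) and 0.649 (0.415 to 1.00) had wide intervals that only just cleared or touched 1.

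BRCA1 and its partners had lower ratios in ST-HSC than in MPP2 cultures, with counting intervals that overlapped for Brca1, Bard1 and Palb2; the difference was not tested. Brca1, which with BARD1 forms the ubiquitin ligase that favours recombination, measured 73.2, 52.96, 61.4 and 50.2, at ratios of 0.724 (0.658 to 0.796) and 0.818 (0.737 to 0.908). Bard1 was the highest of the group per kb of exon at 8.57 (Blm, at 11.8, where the longest transcript is taken as the length) and measured 52.8, 44.0, 49.3 and 47.9. Its ratios were 0.832 (0.747 to 0.927) and 0.972 (0.869 to 1.09). Palb2, the bridge between BRCA1 and BRCA2, measured 13.7, 9.13, 9.45 and 9.71, so that the ST-HSC library with ethanol stood above the other three. The ratio was 0.666 (0.529 to 0.837) in ST-HSC cultures and 1.03 (0.795 to 1.33) in MPP2 cultures, the widest gap between cell types among the 41 genes (0.60 in log2 difference). Rad52, a strand-annealing factor, was lowest per kb of exon at 0.725 (Rad51c, at 0.912, by the longest transcript) and measured 5.08, 4.81, 3.17 and 3.61. With ratios of 0.949 (0.671 to 1.34) and 1.14 (0.734 to 1.76), no difference in Rad52 was detectable at this depth. The motor protein gene Rad54l and the nuclease gene Exo1 measured 54.4, 42.4, 38.5 and 35.8, and 37.4, 31.5, 26.3 and 23.3. In ST-HSC cultures Rad54l was at 0.779 (0.699 to 0.868) and Exo1 at 0.843 (0.742 to 0.958).

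Promoter sequence, 250 bases before the start of the gene, was held by RefSeq (GRCm38.p6) for 32 of the 41 genes, as 35 promoters. An E2F site, the element through which S-phase genes are timed, was searched as TTTGGCGC, TTTCCCGC or TTTCGCGC on both strands, and a CCAAT box, bound by NF-Y, as CCAAT on both strands. At least 1 E2F site was in 7 of 35 promoters (20%), beside 2.95% of 11067 promoters of tested genes and 1.53% of all 32851. The genes were Bard1, Brca2, Chek2, Fancg, Mdc1, Topbp1 and Xrcc6. A CCAAT box was in 15 of 35 (42.9%), beside 35.5% of tested genes' promoters, and the CHR element TTTGAA of G2 and M phase genes in 1 of 35 (2.86%, Bard1), beside 10.7%. The 15 promoters with a CCAAT box were of 14 genes, since the same box of Rad54l was counted in both of its nearly identical windows. Of the 8 genes at least 20% lower in both cell types, only 4 had promoter sequence. An E2F match was in 1 of their 5 promoters (Brca2) and in 6 of the 30 promoters of other genes, some with ratios near 1 (Xrcc6, Mdc1). The 3 promoters below, from 2 genes that were lower in both cell types and from the most abundant checkpoint gene, show the matches in capitals, 5′ to 3′ on the strand of the gene: GCGGGAAA in Brca2 and GCGCGAAA in Topbp1 are E2F sites read on the other strand, and ATTGG and CCAAT in Blm are CCAAT boxes.
Brca2, chr5:150522371-150522620, plus strand: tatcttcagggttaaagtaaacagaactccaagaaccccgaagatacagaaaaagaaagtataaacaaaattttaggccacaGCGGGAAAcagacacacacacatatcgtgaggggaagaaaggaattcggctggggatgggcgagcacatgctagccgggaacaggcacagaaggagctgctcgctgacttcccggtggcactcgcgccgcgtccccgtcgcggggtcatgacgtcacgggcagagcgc
Blm, chr7:80534999-80535248, minus strand: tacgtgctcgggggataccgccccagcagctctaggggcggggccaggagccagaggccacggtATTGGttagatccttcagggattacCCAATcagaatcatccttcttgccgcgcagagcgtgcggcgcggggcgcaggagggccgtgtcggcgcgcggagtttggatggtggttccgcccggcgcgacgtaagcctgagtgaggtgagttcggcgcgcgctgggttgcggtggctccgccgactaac
Topbp1, chr9:103305077-103305326, plus strand: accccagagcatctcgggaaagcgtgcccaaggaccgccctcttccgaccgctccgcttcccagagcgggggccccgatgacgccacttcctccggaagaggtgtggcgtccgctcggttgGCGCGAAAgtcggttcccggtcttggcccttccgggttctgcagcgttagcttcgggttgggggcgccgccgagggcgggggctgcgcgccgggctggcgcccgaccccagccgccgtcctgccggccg
The E2F match starts 168 bases before the start in Brca2 and 129 in Topbp1, and the boxes of Blm start 186 and 161 bases before it. A match of letters is a description of the window and not a measured binding site.

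The Fanconi anaemia genes showed less of a common direction, with medians of -0.23 and -0.15 and 3 of 9 below 0 in both cell types. Those 3 were Fanci, Fancm and Brip1. Brip1, the helicase that binds BRCA1, measured 41.5, 29.6, 32.5 and 27.2, at ratios of 0.713 (0.628 to 0.810) and 0.836 (0.724 to 0.964). Fancm, the translocase that anchors the complex at stalled forks, measured 38.4, 28.3, 34.9 and 29.2, at 0.738 (0.647 to 0.841) and 0.836 (0.728 to 0.960). Fanci, which is ubiquitinated as a pair with FANCD2, had log2 differences of -0.23 and -0.15, and Fancd2 of -0.24 and 0.01. With the GC trend of all genes subtracted, Brip1 was no longer below 0 in MPP2 cultures. The log2 differences there were then 0.045 for Brip1, -0.096 for Fancm and -0.067 for Fanci. In ST-HSC cultures they were -0.38, -0.39 and -0.21. The subunits of the core ligase complex scattered around 0. Fancg was the highest of the group per kb, at 7.49, and measured 28.0, 22.9, 30.2 and 32.7, with ratios of 0.818 (0.703 to 0.949) and 1.08 (0.942 to 1.24). Fancc was the lowest per kb of exon at 1.00 and measured 7.72, 9.92, 8.15 and 7.70, with ratios of 1.28 (0.993 to 1.66) and 0.945 (0.712 to 1.251). Fancl, the ligase subunit itself, measured 6.33, 7.19, 5.84 and 4.65, at 1.14 (0.846 to 1.53) and 0.796 (0.558 to 1.13). All 4 intervals of Fancc and Fancl held 1, so these opposite directions lay within counting error. Fanca and Fance, also core subunits, had log2 differences of -0.06 and 0.08 in ST-HSC and 0.11 and -0.17 in MPP2 cultures. Exons on the other strand overlap 18.6% of the exon length of Fancc, 15.95% of Fanci, 15.4% of Rad54l, 15.0% of Trp53bp1, 13.7% of Fancl and 10.5% of Fanca, and whether counting used strand is not given in these sources.

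Among the genes of end joining, Xrcc5 stood lower in both cell types and its partner Xrcc6 did not. Xrcc5, which encodes Ku80, measured 13.3, 8.98, 17.1 and 12.997, with ratios of 0.676 (0.535 to 0.852) and 0.760 (0.618 to 0.932). Each 4OHT library was below its own control, and the MPP2 library with 4OHT was only just below the ST-HSC control. Xrcc6, which encodes Ku70, was the highest per kb at 7.96 and measured 40.5, 39.9, 31.4 and 30.8, with ratios of 0.986 (0.876 to 1.11) and 0.982 (0.853 to 1.13). Prkdc, the kinase that Ku recruits, measured 43.5, 35.2, 44.7 and 35.5, at 0.809 (0.717 to 0.912) and 0.794 (0.701 to 0.898), so both of its 4OHT libraries lay below both controls. Lig4, the ligase of the pathway, was the lowest per kb at 0.807 and measured 5.22, 3.09, 4.55 and 3.93. It was at 0.593 (0.397 to 0.873) in ST-HSC cultures and at 0.865 (0.583 to 1.28) in MPP2 cultures, and these intervals overlap. Xrcc4 and Nhej1, the scaffold proteins of the ligation step, had log2 differences of 0.06 and -0.04 in ST-HSC and -0.02 and 0.05 in MPP2 cultures. The medians of the 6 were -0.17 and -0.11.

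The 2 poly(ADP-ribose) polymerases, which flag nicked DNA, had ratios whose counting intervals overlapped in both cell types. The difference between the 2 genes was not tested. Parp1 measured 136, 144, 95.4 and 93.1, with ratios of 1.06 (0.991 to 1.12) and 0.976 (0.901 to 1.06), and had the higher level per kb of the pair (22.1 against 5.80 for Parp2). Parp2 measured 23.5, 21.6, 22.2 and 16.8, with ratios of 0.917 (0.783 to 1.07) and 0.758 (0.633 to 0.906), the MPP2 library with 4OHT being the low one and both 4OHT libraries lying below both controls.

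Across both cell types, 8 genes were at least 20% lower with 4OHT in each: Rad50, Rif1, Brca2, Rad51c, Rbbp8, Blm, Wrn and Xrcc5. This is 8 of 41 beside 4.57% of all tested genes, and 0 of 41 were so much higher in both, beside 5.36%. The effect common to both cell types was tested with limma on log2 values over the 4 libraries. Each gene had 1 residual degree of freedom, with 3.94 more borrowed from the spread of all genes. The test was adjusted over all 11370 genes. It called 0 of the 41 genes, beside 0.0088% of all tested genes lower (1 gene) and 0.044% higher (5 genes). The lowest adjusted p by limma were 0.133 for Brca2 (log2 difference -0.67 ± 0.13, SE), 0.159 for Rbbp8 (-0.62 ± 0.13) and 0.161 for Rad50 (-0.65 ± 0.14). For Blm it was 0.173 (-0.58 ± 0.13) and for Rif1 0.241 (-0.55 ± 0.16), and at an unadjusted p under 0.05 limma had 11 of the 41 lower and 0 higher, beside 7.19% and 7.02% of all tested genes.

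Calls differed between tools. The quasi-likelihood test of edgeR on the recovered reads called 211 genes lower (1.86%) and 281 higher (2.47%), and among the 41 it called 5 lower and 0 higher. Its adjusted p was 0.0147 for Blm, 0.0149 for Rbbp8, 0.0156 for Brca2, 0.0188 for Rad50 and 0.0312 for Rif1. Limma with a mean-variance trend called the same 5 genes, with 2.3% of all tested genes lower and 2.96% higher, and DESeq2 called 0 of the 41, with 0.383% lower and 1.09% higher and adjusted p between 0.137 and 0.257 for these 5. Over all the settings tried the adjusted p of Blm ran from 0.00772 to 1.00, of Brca2 and Rbbp8 from 0.00945 to 1.00, of Rad50 from 0.0109 to 1.00 and of Rif1 from 0.0138 to 1.00. Each upper end came from the limma fit without the cell type term. In the other settings the highest were 0.293 for Blm, 0.260 for Brca2, 0.362 for Rbbp8, 0.283 for Rad50 and 0.548 for Rif1, all by limma. These 5 calls thus depend on the setting, and the ratios of all 5 genes were below 1 in both cell types.

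**Figure D3:**
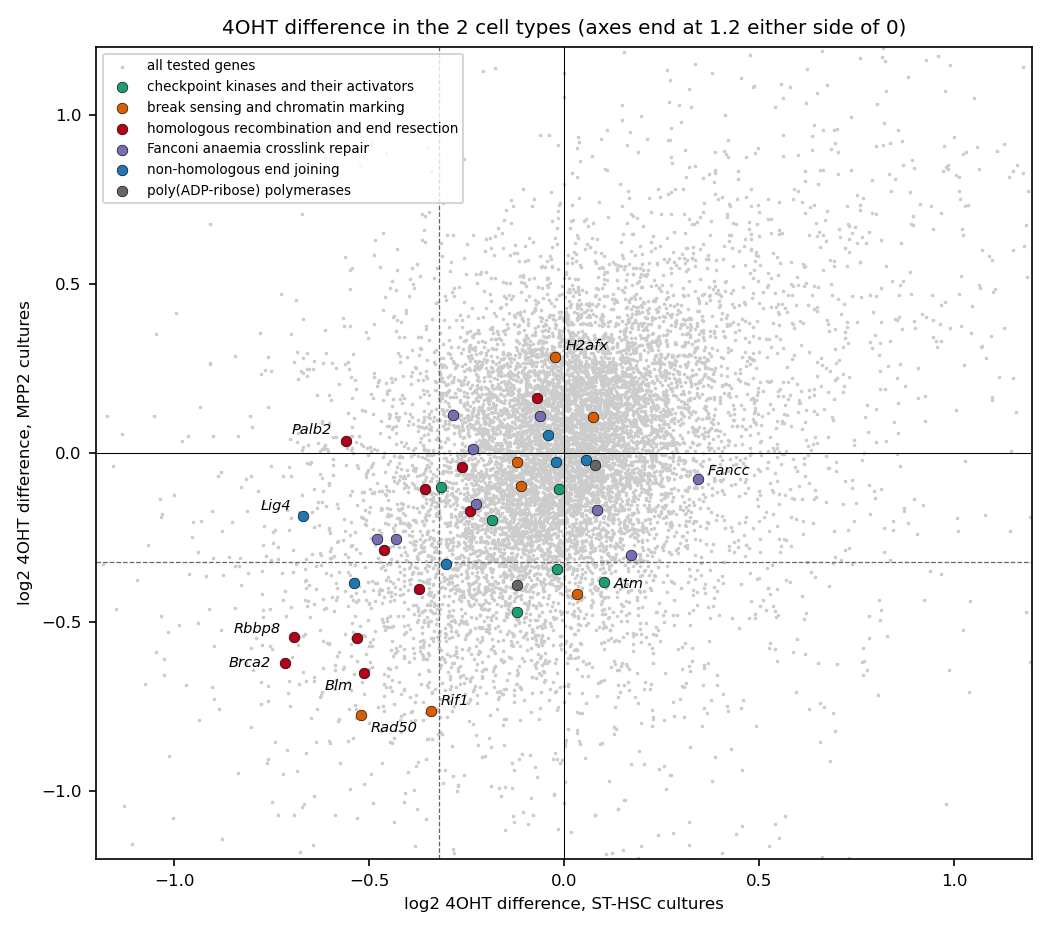
Log2 difference (4OHT minus ethanol) in ST-HSC cultures on the x axis and in MPP2 cultures on the y axis for the 41 genes, coloured by role, over the tested genes within the axes in grey; dashed lines mark 20% lower. The 8 genes at least 20% lower in both lie in the lower left corner, and none of the 41 is at least 25% higher in both.

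Base composition moved with these differences. In the 547 tested genes with the lowest GC content (median 39.5%) the median log2 difference was -0.16 in ST-HSC and -0.40 in MPP2 cultures. The 41 genes had a median GC of 45.9%, beside 50.0% for all tested genes with a value. Across the 41 genes, GC content and log2 difference had a Pearson correlation of 0.37 in ST-HSC cultures and 0.66 in MPP2 cultures, where all tested genes gave 0.12 and 0.38; the points share their libraries. The 31 genes below the median GC had medians of -0.30 and -0.29, with 27 and 29 below 0, while 58.2% and 70.4% of all genes on that side were below 0. The 10 genes at or above it had medians of -0.02 and 0.08, with 6 and 4 below 0, where 43.1% and 29.6% of all genes were.

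With the GC trend of all genes subtracted, the medians of the 41 were -0.17 and -0.10 in place of -0.23 and -0.17, and 12 and 6 of 41 in place of 14 and 14 were at least 20% lower in ST-HSC and MPP2 cultures, beside 8.9% and 11.8% of all genes with a GC value. Rad50, Brca2, Rad51c and Blm stayed at least 20% lower in both cell types (4 of 41, beside 2.83% of all tested genes with a GC value). For these the log2 differences in ST-HSC and MPP2 cultures were -0.49 and -0.68 for Rad50, -0.63 and -0.45 for Brca2, -0.49 and -0.39 for Rad51c and -0.42 and -0.48 for Blm. Rif1, with a GC content of 38.4%, moved furthest of the 8, to -0.17 and -0.36. Rbbp8 (-0.59 and -0.24), Xrcc5 (-0.51 and -0.29) and Wrn (-0.26 and -0.18) no longer reached 20% in MPP2 cultures. The median of the recombination genes was then -0.42 in ST-HSC cultures, against -0.09 for break sensing and -0.21 for the Fanconi genes, and in MPP2 cultures -0.18 against -0.11 and -0.02, while the pair of polymerases had -0.23 there. The part of base composition in the differences was not tested.

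**Figure D4:**
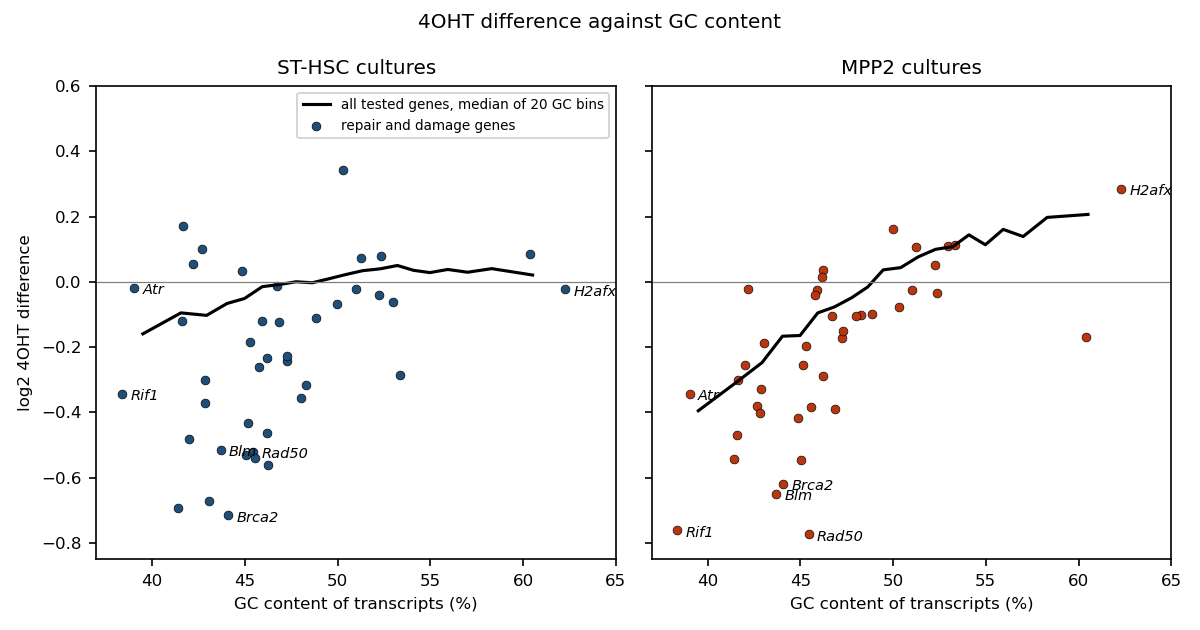
GC content of the transcripts in percent (x axis) against log2 difference (4OHT minus ethanol) in ST-HSC and MPP2 cultures for the 41 genes, with the medians of all tested genes in 20 bins of GC as a line. The line slopes upward, more so in MPP2 cultures, and Rad50, Brca2, Rad51c and Blm lie well below it in both.

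Summed, the 41 genes took 0.226% of all reads (exact 95% interval 0.224% to 0.228%) in ST-HSC cultures with ethanol and 0.205% (0.202% to 0.207%) with 4OHT, and 0.195% (0.193% to 0.197%) and 0.175% (0.173% to 0.178%) in MPP2 cultures. In normalized counts, the sum with 4OHT was 0.892 (0.878 to 0.907) of its control in ST-HSC cultures and 0.942 (0.926 to 0.959) in MPP2 cultures. H2afx, Topbp1 and Parp1 carried much of that sum. Without these 3 genes the ratios were 0.836 (0.818 to 0.854) and 0.834 (0.814 to 0.854), alike in both cell types.

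Between the cell types, Parp1 was the single gene of the 41 called by limma. It was lower in MPP2 than in ST-HSC cultures, at 95.4 against 136 normalized counts with ethanol, a ratio of 0.701 (0.654 to 0.752), and at 93.1 against 144 with 4OHT, 0.648 (0.602 to 0.697). The log2 difference shared by both treatments was -0.57 ± 0.13 (SE), with an adjusted p of 0.0492 by limma and a range of 0.0011 to 0.088 over all settings tried. Limma called 5.31% of all tested genes lower and 9.88% higher in MPP2 cultures. The edgeR test, which called 14% lower and 16.5% higher, called 9 of the 41 lower (Atm, Atr, Rad50, Rif1, Rad54l, Exo1, Fance, Xrcc6 and Parp1) and 0 higher. The 2 MPP2 libraries lay below both ST-HSC libraries for 18 of 41 genes, beside 33.7% of all tested genes, and above both for 1 (Fancg), beside 28.8%.

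As a whole the 41 genes were slightly lower in MPP2 cultures, with 32 of 41 below 0 with ethanol (54% of all tested genes) and 29 of 41 with 4OHT (51.8%), and medians of -0.18 and -0.17. At least 20% lower were 11 of 41 with ethanol, beside 20.1% of all tested genes, and 14 of 41 with 4OHT, beside 25.9%. That far higher were 1 (22%) and 2 (24.7%). In both treatments 6 genes were that much lower, beside 13.9%, a share close to the background, and 1 was higher, beside 15.8%. That gene was Xrcc5, at 17.1 against 13.3 normalized counts with ethanol and 12.997 against 8.98 with 4OHT, so the Ku subunits differed in opposite directions (Xrcc6 31.4 against 40.5, and 30.8 against 39.9). Limma did not call Xrcc5 (adjusted p 0.0843).

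**Figure D5:**
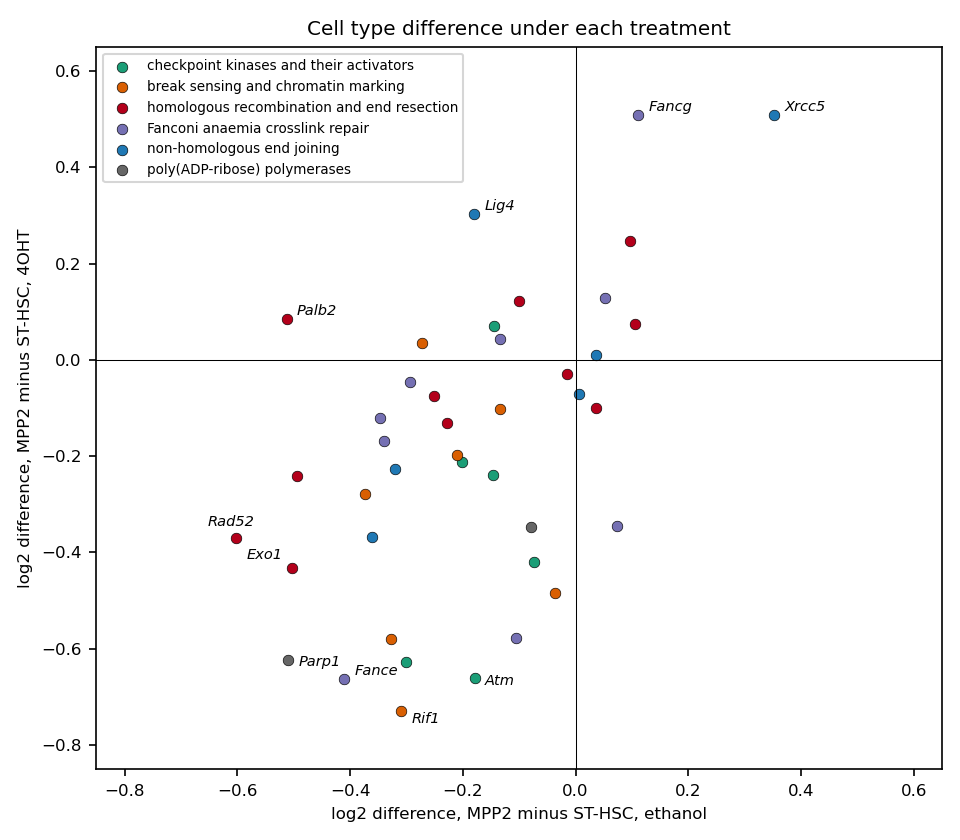
Log2 difference between MPP2 and ST-HSC cultures (MPP2 minus ST-HSC) with ethanol and with 4OHT for the 41 genes, grouped by role; each point is a difference between 2 libraries. Parp1 lies at -0.51 and -0.62 and Xrcc5 at 0.35 and 0.51.

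Other genes of damage signalling and break repair followed the 41 less closely. Of 67 such genes, all tested, 51 were below 0 in ST-HSC and 43 in MPP2 cultures, beside 50.6% and 50.2% of all tested genes. The medians of the 67 were -0.08 and -0.06, and 5 of 67 were at least 20% lower in both, beside 4.57%. Of the 67, limma called 0 and edgeR 2 lower, beside 0.0088% and 1.86% of all tested genes. The 2 were Smc6 and Smc5, the paired ATPases of a complex that guards stalled forks and recombining DNA. Smc6 measured 66.1, 49.6, 59.3 and 36.4 (adjusted p 0.206 by limma and 0.0265 by edgeR), and Smc5 measured 34.8, 27.2, 38.5 and 22.6 (0.238 and 0.0493). In both, each 4OHT library lay below both controls. With the GC trend removed the log2 differences were -0.24 and -0.30 for Smc6 and -0.18 and -0.36 for Smc5. Of the 64 listed genes with a GC value, 0 were then at least 20% lower in both, beside 2.83% of all such genes. The 25 genes of base excision, mismatch and nucleotide excision repair had medians of 0.06 and -0.06, with 0 at least 20% lower in both, beside 4.57%. The 15 housekeeping genes had medians of -0.01 and -0.04.

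The targets of p53, the transcription factor that ATM and CHK2 activate, stood higher with 4OHT on balance. Of 31 listed genes 14 were at least 25% higher in ST-HSC and 14 in MPP2 cultures (11.8% and 13.3% of all tested genes), 11 in both (5.36%), with medians of 0.27 and 0.23, and 0 were lower in both. Limma called 1 of the 31 higher, beside 0.044% of all tested genes. The edgeR test called 5 higher, beside 2.47%, and 1 lower, beside 1.86%. With the GC trend of all genes subtracted, the medians of the 31 were 0.26 and 0.14. Zmat3, a p53-induced RNA-binding protein, measured 10.5, 49.0, 12.99 and 52.7 (log2 difference 2.08 ± 0.13, SE, adjusted p 0.0477 by limma). Cdkn1a, the p21 inhibitor of cyclin-dependent kinases, measured 90.0, 205, 97.8 and 156, both 4OHT libraries above both controls, with an adjusted p of 0.126 by limma and 0.00245 by edgeR. Trp53 itself measured 139, 169.8, 109.7 and 133, at ratios of 1.22 (1.15 to 1.29) and 1.21 (1.13 to 1.30), and neither test called it. Not all of the list stood higher. Perp, a membrane protein of apoptosis, measured 5.08, 4.74, 58.9 and 19.8 and was the gene edgeR called lower (adjusted p 0.0471, 0.391 by limma). The log2 differences were -0.28 and -0.60 for the growth arrest gene Gadd45a and -0.73 and -0.28 for Ddb2, which recognises ultraviolet lesions.

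Of 20 cell cycle genes 17 were below 0 in ST-HSC and 13 in MPP2 cultures, with medians of -0.12 and -0.11, and 4 were at least 20% lower in both, beside 4.57% of all tested genes. Their summed level was 3672 and 3026 (ST-HSC, ethanol and 4OHT) and 3480 and 3126 (MPP2). Mki67, the proliferation marker, measured 593, 317, 629 and 558, and Cenpf, a centromere protein, measured 56.5, 29.2, 65.7 and 37.8. Other mitotic genes did not share this, such as the kinesin gene Kif20a (log2 differences of -0.00 and 0.07), the kinase gene Aurka (-0.01 and 0.10) and the transcription factor gene Mybl2 (-0.06 and 0.18). The 20 genes of DNA replication had medians of -0.11 and 0.06, with 15 and 8 below 0, and summed to 4589, 4259, 3807 and 3874. The macrophage marker sum was higher with 4OHT in both cell types, as given above. The 8 markers of dendritic and antigen-presenting cells summed to 222, 336, 98.9 and 217. Cd74, H2-Aa, H2-Ab1 and H2-Eb1 made up most of each of these sums. In the same list Xcr1 had 18, 15, 10 and 10 reads and Flt3 had 6, 12, 1 and 3. A change in dendritic cells themselves was not tested. The 11 mast cell and basophil markers summed to 216, 167, 1684 and 606. The 12 erythroid markers summed to 3.06, 2.08, 167 and 21.0, with Hba-a2, Hbb-b1, Slc4a1 and Car1 among those at 0 in both ST-HSC libraries. The part of cell division and of culture makeup in the levels of the 41 genes was not tested.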

How the data were processed

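RNA-seq was done on 4 mouse colony cultures, 1 library for each cell type and treatment in the labels. Per the labels' protocols, RNA was purified on RNeasy columns and 200 ng went into MGIEasy rRNA-depleted, strand-specific libraries. The mm10 build, edgeR, RSEM, Bowtie2 and Trimmomatic 0.36 were named, per the submitters' processing notes, with no role; the annotation is not given there. The authors deposited 1 table of normalized values, a signal per gene. All 57292 values were whole multiples of a step in their column (within 1e-06 reads), which gave whole reads; the step follows the TMM-scaled library size. No listed gene had a sum under 4 reads.

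The 41 genes, the gene lists and the tests were chosen with earlier results of these data known. The 11370 genes (79.4%) averaging 1 normalized count or more were tested with limma 3.58.1 on log2(value + 0.5), with terms for cell type and treatment and Benjamini-Hochberg adjustment over all genes at 0.05. Fold counts use the same log2 scale, which understates changes of low genes; ratios are of normalized counts, with exact conditional binomial 95% intervals that cover counting error only. Within a cell type no test was possible. Alternatives were edgeR 4.0.16 and DESeq2 1.42.0 on the recovered reads, limma with a trend, other pseudocounts, filters and scalings, and removal of GC or length trends in 20 bins (GC and length together was added after the data were seen). Gene positions, GC (10937 tested genes, 96.2%) and lengths came from GENCODE M21 on GRCm38, the assembly of mm10. Levels between genes were compared per kb of exon. By rule, every library's value is given for genes past 2-fold, past 20% lower or 25% higher in both cell types, or called by limma, for the 6 with the widest gap between cell types and for the highest and lowest per kb in each role, and from other lists some of the 3 highest and 3 lowest with Trp53, Cdkn1a and Mki67; Chek1, Clspn, Brca1, Rad54l, Exo1, Brip1, Fancm and Prkdc were added after their values were seen. Scripts were tested on simulated data, with R 4.3.3 and Python 3.11.15.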

Additional observations from a re-analysis of the deposited data

Results flagged for a closer look

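In 2 of the 41 genes, beside 13% of all tested genes, the 4OHT difference had opposite signs in the cell types and counting intervals that did not overlap, while the difference between cell types was not tested, since an interaction leaves no residual degrees of freedom in 4 libraries. For Atm the log2 difference in MPP2 cultures was lower than that in ST-HSC cultures, at -0.48 (MPP2 minus ST-HSC), from 0.10 in ST-HSC to -0.38 in MPP2 cultures. For H2afx it was higher, at 0.31, from -0.02 to 0.29. In ST-HSC cultures the intervals of both genes held 1 (0.966 to 1.19 for Atm and 0.954 to 1.01 for H2afx). The sign of the difference there thus lay within counting error. With the GC trend removed the 2 values for Atm were 0.21 and -0.16 and those for H2afx were -0.05 and 0.09.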

How the results depend on the processing

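With 1 library per group, a fit that leaves out a library has 0 residual degrees of freedom and no test. No paired analysis by replicate was possible because the labels give no replicate numbers; the cell type term already compares treatments within cell types. Depth limits the scarce genes: Rad51c, Rad52, Lig4 and Nhej1 have counting intervals wide enough to hide the changes seen elsewhere. Where a value below moved, the cause was not tested unless the setting itself shows it (fewer genes or terms in the fit).

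Genes called for the shared 4OHT effect (5 higher and 1 lower in the main fit) numbered 337 and 261 with a mean-variance trend, 281 and 211 by edgeR, 117 and 41 by DESeq2, 162 and 68 with a mean of at least 5, and 73 and 19 with a pseudocount of 1. They numbered 0 and 0 without the cell type term, with a pseudocount of 0.1, without a filter, with DESeq2 size factors, with total-read scaling and with the GC, length or both trends removed. Of the 41 genes, 0 were called lower in the main fit, 5 with a trend, 5 by edgeR and 1 (Brca2) with a mean of at least 5.

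For the cell types, limma called 1123 genes higher in MPP2 and 604 lower. With a trend it called 1899 and 1862, without the treatment term 239 and 25, with a pseudocount of 0.1 674 and 178, without a filter 490 and 69, and edgeR 1873 and 1589. Lower genes numbered 964 with a pseudocount of 1, 1395 with a mean of at least 5, 394 with DESeq2 size factors, 247 with the length trend and 279 with both trends removed. Of the 41, lower calls (1 in the main fit) numbered 9 with a trend or edgeR, 6 with a mean of at least 5 (and 1 higher), 2 with a pseudocount of 1, and 0 without the treatment term, with a pseudocount of 0.1, without a filter, with DESeq2 size factors, with total reads and with the length or both trends removed.

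The median of the 41 in ST-HSC cultures (-0.23) was -0.17 with the GC, -0.16 with the length and -0.13 with both trends removed; the single gene that was at least 25% higher became 0 with the GC or both trends removed. In MPP2 cultures the median (-0.17) was -0.24 by total reads, -0.10 with the GC and -0.091 with both trends removed, and 14 genes at least 20% lower became 6 and 6. The median gap between the 4OHT responses of the cell types (0.03, response in MPP2 minus that in ST-HSC) was -0.056 by total reads and 0.11 with the GC trend removed. Genes at least 20% lower in both (8) were 4 with the GC and 4 with both trends removed; with total reads they were again 8, with Brca1 in place of Rif1. Atr in MPP2 cultures (-0.34) turned to 0.054 with the GC and 0.059 with both trends removed.

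The summed share in the 4 libraries was 0.131%, 0.111%, 0.116% and 0.0926% without H2afx, Topbp1 and Parp1, and 0.242%, 0.220%, 0.205% and 0.189% of reads outside Rn45s. Of 542 other values for single genes, 500 kept their direction, and side of the threshold where tested, within their counting error. Many of these settings change a value little. With the GC trend removed, 23 of 24 such values in ST-HSC cultures did so but only 15 of 24 in MPP2 cultures, where 8 moved and 1 reversed.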
